A study of Mus musculus with 4 samples.

Results

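The comparison described here is that of mouse tail skin 48 h after a photodynamic treatment with untreated tail skin. Its members are the 2 arrays whose labels name treated and control tail skin, of 4 arrays in the study. The treated group received methyl aminolevulinate as a cream (Metvix), 2.5 h in darkness and then red light of 636 nm from an LED lamp to a dose of 10 J/cm2. The control group received no treatment according to its label, so cream and light were not separated. By the study's design each group had 3 animals, whose strain, sex and age are not given in the sources used here. Each group was read on 1 array, and pooling of RNA from the 3 animals is not stated. Back skin, shaved beforehand, was treated in the same way at 2.5 J/cm2, with its own untreated control, and is used below only for values set beside those of the tail.

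Skin cells turn methyl aminolevulinate into protoporphyrin IX, the last intermediate of heme synthesis, and red light excites this porphyrin so that it passes energy to oxygen. The reactive oxygen species that follow damage lipids and proteins, and cells answer such damage with antioxidant enzymes, stress transcription factors, cytokines and, in skin, with keratinocytes that migrate and divide. Tail skin of the mouse carries a thick scaly epidermis between sparse hair follicles, and is often used because its epidermis can be lifted off whole. The sample labels name tail skin and the extraction protocol tail epidermis. All 8 keratinocyte markers on the array were well above background on both tail arrays. Markers of dermal and deeper cells were also read, with 5 of 6 fibroblast markers and 5 of 5 skeletal muscle markers well above background on both arrays.

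Signals are spot intensities corrected for local background, in arbitrary units. The 75th percentile of the signals was 7261 on the tail control array and 909 on the tail treated array, against 1860 and 1204 on the back arrays. The treated tail array was thus 3.00 log2 units lower at that rank, and its median signal was 101 against 640.3, whereas the 6 probes for Agilent's spiked control RNA were 0.93 lower. Differences below are log2 of treated over control after each array was set to its own 75th percentile, so they are relative to that level. Calls need a 2-fold difference, 1 on the log2 scale. When set to the spiked RNA instead, every difference would be 2.07 lower, leaving 133 genes higher and 10334 lower, so that higher values under 2.07 would turn direction. There is no replicate, so no difference has a test or a replicate error. The scanner's own error estimate gave a median of 0.20 for a difference, and the median SD between probes of 1 gene was 0.40. Both cover spots and probes but not animals. Of 16862 genes, 1668 were saturated on the control array and 330 on the treated array, and a gene saturated or not well above background on 1 array has only a bound, written as "at least" and entered in list medians at the bound. Where such a gene lay on the other side after scaling, it has no value.

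Of 12845 genes with a value, 3488 were higher (27.2%) and 841 lower (6.55%) in treated tail skin, and 8516 differed by less than 2-fold. The median difference of all genes was 0.33. The share of calls varied with brightness. With the measured genes in 10 equal bins from dim to bright, in the dimmest bin 71.0% were higher and the median difference was 1.33, in the fifth bin 17.3% were higher with a median of -0.044, and in the brightest bin the median was 0.46. Olfactory receptors, best known from the nose, whose median signal was 40.8 on the control and 12.8 on the treated array, were higher in 72.7% (330 of 454), with 5 lower. After cyclic loess, a scaling that fits and subtracts a trend with brightness and shifted the median of all genes by -0.41, 2007 of 13814 genes were higher (14.5%) and 1595 lower (11.5%). Under all 5 scalings compared (the 75th percentile, cyclic loess, quantile, the median of detected probes and normexp background correction), 1814 genes were higher (14.1%) and 259 lower (2.02%). These are called steady below. Scaling to the spiked RNA, which left 133 genes higher, is not among the 5. Olfactory receptors were steadily higher in 31.9% of cases, so a steadily higher call of a dim gene is common on these arrays. Normexp adds an offset of 50 to every signal, which lifts treated signals near or under that value, and under it 16 of the lower genes named below turned direction and others lost their call. They are given with their paragraph.

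**Figure D1:**
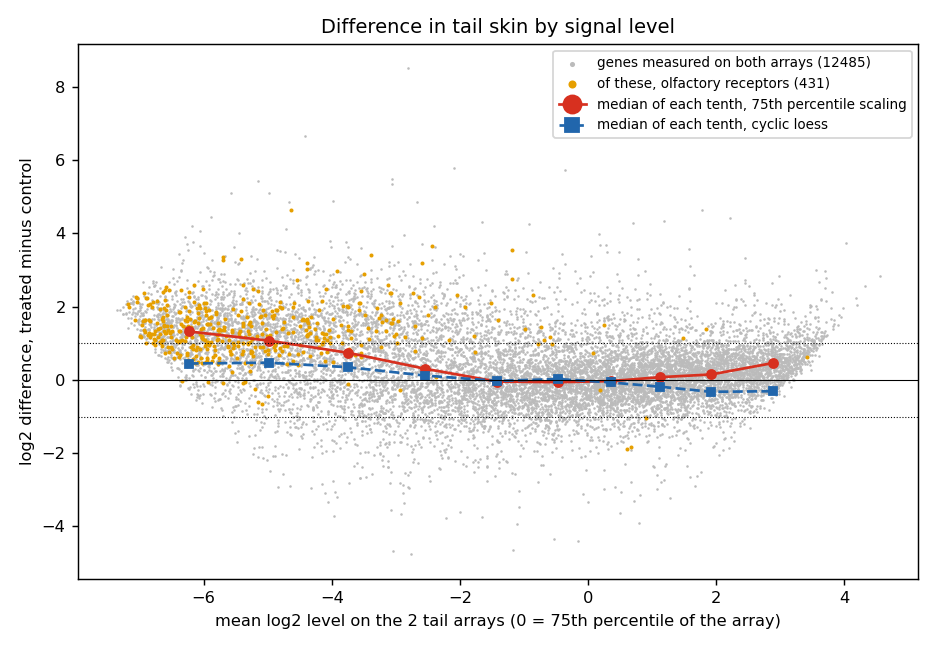
Each grey point is 1 of the 12485 genes measured on both tail arrays, with its mean log2 level on the horizontal axis and its log2 difference (treated minus control) on the vertical axis; orange points are olfactory receptors. The medians of 10 brightness bins run from 1.33 in the dimmest to -0.044 in the fifth and 0.46 in the brightest bin with the 75th percentile (red), and after cyclic loess (blue) from 0.45 in the dimmest to -0.31 in the brightest bin; dotted lines mark 2-fold.

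The genes were then grouped into 60 lists by known function or cell type. The lists with the lowest medians were basement membrane and adhesion (-0.98), early response genes (-0.75), the TNF and NF-kB pathway (-0.65) and wound matrix (-0.64), and cyclic loess put them at -1.36, -0.72, -0.88 and -0.88 (all genes -0.076). Normexp put them at -0.36, -0.22, -0.47 and 1.71 (all genes 0.63), so that wound matrix turned direction. Over members measured on both arrays, which leaves out the bounds, they were at -0.98, 0.051, -0.52 and -0.62, so early response genes had a low median only with their 5 bounds included. The highest medians belonged to red blood cell genes (2.02), adipocyte genes (1.83), the hair shaft (1.63) and fibroblasts (1.50), which cyclic loess put at 1.77, 0.82, 0.69 and 0.80. The counts of each list below stand against 27.2% higher and 6.55% lower over all genes, or 14.5% and 11.5% after cyclic loess. A gene saturated on the control array alone enters these counts only as a bound on the lower side. This can raise the lower share of lists with many such genes.

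**Figure D2:**
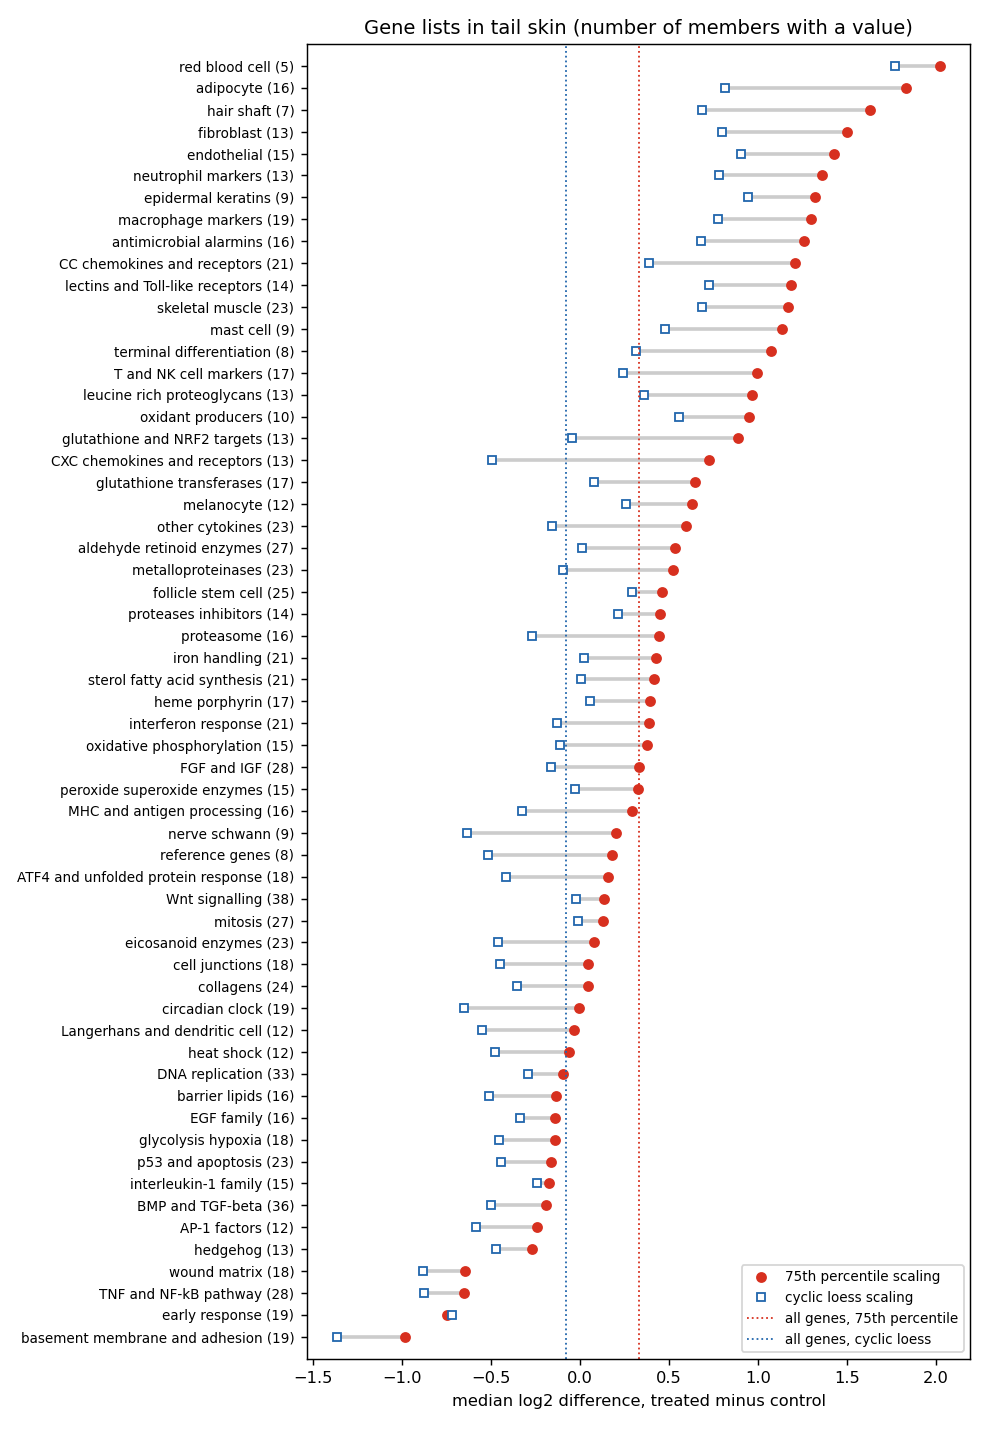
For each gene list the median log2 difference (treated minus control) is shown with 75th percentile scaling (filled circles) and after cyclic loess (open squares), with the number of members that have a value; dotted lines mark the medians of all genes, 0.33 and -0.076. Lists are ordered by their 75th percentile median, from basement membrane and adhesion at -0.98 to red blood cell genes at 2.02; ribosomal protein genes, with 1 value, are left out.

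Several genes of the AP-1 transcription factor and of the first response to a stimulus had very low values in treated tail skin, while their lists as a whole were mixed. AP-1 is a dimer of Jun, Fos or ATF proteins that binds the letters TGANTCA and is switched on by growth factors and stress. Of 12 AP-1 factors with a value, 4 were lower (33.3%, against 6.55% of all genes) and 1 was higher, the lower ones all steadily. Of 16 on the array 6 were saturated on the control array (9.89% of all genes were), and 4 had no value. The list median was -0.24, or 0.22 over members measured on both arrays. The stress factor Atf3 had a signal of 62491 on the control array, where it was saturated, and 149 on the treated array, which is at least 52.5-fold lower after scaling. Fosl1, a Fos protein of migrating keratinocytes, went from 30023 to 177, a difference of -4.41. Fosb went from 20204 to 291 (-3.12). The small Maf protein Mafk, a partner of NRF2, was at -1.01. Fos itself, saturated on the control array, was at least 1.46-fold lower and therefore not called, and Jun differed by -0.78, which cyclic loess put at -1.14.

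Among 19 early response genes with a value, 7 were lower (36.8%, against 6.55% of all genes), 4 of them steadily, and 2 higher, and 5 of the values were bounds. Of 28 on the array 13 were saturated on the control array (9.89% of all genes were), and 9 had no value. A gene saturated there alone could be counted only as lower, so the 36.8% and 6.55% are not like shares. Ccn1, a matrix-bound signalling protein, had signals of 61855 and 161, at least 48.1-fold lower. The orphan nuclear receptor Nr4a1 was at least 10.7-fold lower (62382 against 732), and Zfp36, which speeds the decay of cytokine mRNAs, at least 3.12-fold. The nuclear protein Csrnp1 was at -2.64 (54474 against 1096) and Arc, a cytoskeleton protein best known from neurons, at -2.89. Egr4 and Nr4a2, dimmer genes with 42.3 and 44.0 on the treated array, were at -3.09 and -2.06. The MAP kinase phosphatases Dusp2 and Dusp6 lay the other way, at 1.98 and 1.21, or 1.39 and 0.61 after cyclic loess. With normexp Egr4 and Nr4a2 were at 0.27 and 1.23. Egr1 was saturated on the control array (64366) and read 13763 on the treated one, which gave no value.

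TNF and NF-kB genes were often lower. NF-kB is held in the cytoplasm by inhibitor proteins until cytokines or damage free it, and many of its targets are its own inhibitors. With a value were 28 genes, of which 11 were lower (39.3%, against 6.55% of all genes) and 1 higher, and 6 were steadily lower. Of 33 on the array 5 were saturated on the control array, and 5 had no value. Tnf, the ligand that gives the pathway its name, had signals of 5589.7 and 25.7, a difference of -4.77. Rel, a subunit of NF-kB, was at -3.75, with 8424 on the control and 78.4 on the treated array. The feedback inhibitor Tnfaip3, which trims ubiquitin chains, was at least 18.2-fold lower (63599.8 against 437), and its partner Tnip1 at least 3.06-fold. Nfkbiz, a nuclear member of the inhibitor family that helps to induce epidermal genes, was at least 2.13-fold lower, and Bcl3, of the same family, at -1.26. The adhesion molecule Icam1, to which leukocytes bind, was at -3.67, and normexp put Icam1 at 0.032 and Tnf at -0.67. The receptor Tnfrsf1b was the only higher member, at 1.58, but another of its probes differed in sign.

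Chemokines differed in both directions. Ccl20, which keratinocytes make and which draws Langerhans cell precursors, was saturated on the control array at 67561 and read 191 on the treated array, at least 44.3-fold lower. The interferon-induced chemokine Cxcl10 fell from 9596 to a signal not well above background (8.11), at least 117-fold lower, the largest bound named here. The neutrophil attractants Cxcl1 and Cxcl2 were dim already on the control array (564 and 585), and were lower by -2.06 on the log2 scale and by at least 7.13-fold, but normexp put Cxcl1 at 2.51. Cxcl16, the scavenger receptor ligand, was at -1.25. In contrast, the platelet chemokines Pf4 and Ppbp were higher, Pf4 with 93.0 and 126 (3.44) and Ppbp at least 21.7-fold from a control signal not well above background. So were Cxcl12, a product of fibroblasts and endothelium, at 1.31 and the mucosal chemokine Ccl28 at 2.51. Among CC chemokines and receptors 12 of 21 were higher and 3 lower, and cyclic loess left 7 higher and 5 lower of 23.

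Of the cytokines, Il1a, the interleukin-1 form stored in keratinocytes, was at -2.45 (16620.3 and 380.3), while Il1b was at -0.52. The epidermal cytokines Il1f6 and Il1f8 were 1.60 and 1.32 higher but 0.78 and 0.84 after cyclic loess, under 2-fold. Oncostatin M (Osm), a leukocyte cytokine of the IL-6 family, was 3.36 higher (168 and 216), and its signal was brighter on the treated array even before scaling. Il17f was 2.63 higher from a signal of 153. Prostaglandin enzymes were mostly within 2-fold (18 of 23), yet the inducible cyclooxygenase Ptgs2 was at least 12.0-fold lower and the prostaglandin receptor Ptger4 at -3.54, with normexp 0.36. Interferon regulatory factor Irf1 was at -3.15 (38233 and 538), whereas of the other interferon response genes Stat2 was 1.11 higher and Isg15 0.88. In that list 15 of 21 lay within 2-fold.

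Of these genes 5 are shown with the bases just before their start sites, because their difference was large and the windows hold AP-1 or NF-kB letters. The windows are the 250 bases before the start in RefSeq's annotation of assembly GRCm38.p6, written along the gene's strand, and capitals mark AP-1 (TGANTCA) and the NF-kB consensus, both sought on both strands. The windows belong to Cxcl10 (chr5:92348890-92349139, minus strand), Mmp13 and Mmp3, proteases described below (chr9:7272264-7272513 and chr9:7445572-7445821, plus strand), Ccl20 (chr1:83116516-83116765, plus strand) and Tnfaip3 (chr10:19015411-19015660, minus strand).
Cxcl10: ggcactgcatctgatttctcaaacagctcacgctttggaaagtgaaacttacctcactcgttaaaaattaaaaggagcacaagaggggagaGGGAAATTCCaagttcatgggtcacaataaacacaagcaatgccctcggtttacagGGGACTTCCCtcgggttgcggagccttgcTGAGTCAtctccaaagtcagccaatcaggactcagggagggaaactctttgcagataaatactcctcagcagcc
Mmp13: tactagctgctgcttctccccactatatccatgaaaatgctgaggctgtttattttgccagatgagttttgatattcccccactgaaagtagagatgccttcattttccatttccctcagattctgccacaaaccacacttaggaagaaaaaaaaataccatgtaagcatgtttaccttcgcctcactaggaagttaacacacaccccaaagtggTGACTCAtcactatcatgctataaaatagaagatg
Mmp3: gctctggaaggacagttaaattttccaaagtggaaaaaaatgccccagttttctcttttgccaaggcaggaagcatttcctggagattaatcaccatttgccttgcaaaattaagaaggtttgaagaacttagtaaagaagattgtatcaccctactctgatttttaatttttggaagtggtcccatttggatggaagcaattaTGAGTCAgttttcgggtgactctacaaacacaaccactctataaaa
Ccl20: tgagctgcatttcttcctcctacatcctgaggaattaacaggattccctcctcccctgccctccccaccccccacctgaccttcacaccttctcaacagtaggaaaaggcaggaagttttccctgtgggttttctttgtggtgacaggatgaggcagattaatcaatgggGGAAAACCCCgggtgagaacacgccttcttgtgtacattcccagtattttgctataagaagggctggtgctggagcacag
Tnfaip3: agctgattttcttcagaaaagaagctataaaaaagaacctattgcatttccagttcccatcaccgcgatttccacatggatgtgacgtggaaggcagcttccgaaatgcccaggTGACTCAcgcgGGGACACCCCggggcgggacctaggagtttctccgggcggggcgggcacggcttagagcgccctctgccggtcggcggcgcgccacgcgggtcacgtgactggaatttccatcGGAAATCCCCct
The Cxcl10 window holds 2 NF-kB matches and 1 AP-1 match, that of Tnfaip3 likewise 2 and 1, Ccl20 has 1 NF-kB match, and each protease 1 AP-1 match, 35 and 46 bases before the start. Over the steadily lower genes, 208 had a window in the table, of which 19 held AP-1 (9.13%) and 15 NF-kB (7.21%). Steadily higher genes had 6.92% and 4.03% of 1388 windows, and all genes with a value 5.12% and 4.37% of 10205. The cyclic AMP element TGACGTCA stood in 2.40% of the lower, 1.08% of the higher and 2.27% of all these windows, and the antioxidant response element TGACNNNGC in 13.9%, 11.2% and 11.2%. A match is a run of letters and says nothing of binding.

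Growth factor genes differed in both directions. In the EGF family 3 of 16 genes with a value were higher and 3 lower, 3 and 2 of them steadily. Each share was 18.8%, against 27.2% higher and 6.55% lower over all genes, and the highest member was at 2.72. Epiregulin (Ereg), a ligand of the EGF receptor, went from 36114 to 363 (-3.64), and Hbegf, another, from 28231 to 1599 (-1.14). The receptor Egfr was saturated on the control array and at least 1.39-fold lower, which is not a call. Spry2, an inhibitor of receptor tyrosine kinase signalling, was at -2.94 (27082 and 443). In the FGF and IGF list 8 of 28 were lower, 6 of them steadily, and 7 higher. Fgf1 was at -3.04, the IGF carrier Igfbp3 at -3.29 (37412 and 477) and the hepatocyte growth factor receptor Met at -1.97. Higher members were dim, among them Fgf5, which ends the hair growth phase, at 2.90 from 50.4, or 2.17 after cyclic loess. Of 36 BMP and TGF-beta genes 9 were higher (25.0%), 3 of them steadily, and 5 lower (13.9%), none steadily. Tgfb1 and Bmp2 were at -1.02 and -1.87, and the TGF-beta mediator Smad3 at -1.78, while normexp put them at 1.57, -0.11 and 0.081. Of 13 hedgehog genes 5 were lower (38.5%, against 6.55% of all genes), 1 of them steadily, and 3 higher, and the median of -0.27 became 3.08 with normexp. Among them were the coreceptors Gas1 and Boc at -1.66 and -1.51 (Boc -0.91 with normexp), but the target Gli1 was at 0.99 in the other direction.

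Basement membrane and adhesion genes showed the lowest median of the lists. Basal keratinocytes hold to laminin through integrins, pairs of an alpha and a beta chain, and a hemidesmosome links them to keratin. Of 19 genes with a value, 9 were lower and 3 higher, and 6 of the lower ones were steady. Itga6, the alpha chain of hemidesmosomes, went from 39243 to 1184 (-2.05), and its partner Itgb4, saturated on the control array, gave no value. Itgb1, the shared chain of the collagen, laminin and fibronectin receptors, was at -2.32 (9707 and 244) and Itgav at -1.98, with normexp 1.51. The laminin gamma chain Lamc1 was at -1.73. Nidogen Nid1, a mesenchymal link of basement membranes, was the steadily higher exception at 1.73. The collagen IV chains Col4a5 and Col4a6, which form the basement membrane network, were at -2.20 (with normexp -0.67) and -2.79, whereas the dermal collagens Col1a1 and Col3a1 were 1.09 and 1.78 higher. Of 24 collagens, 8 were higher (33.3%, near the 27.2% of all genes) and 6 lower, and cyclic loess left 6 higher and 9 lower.

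A few wound proteases and matrix genes had very low values, within lists that were mixed. Of 23 metalloproteinases and inhibitors 8 were higher (34.8%) and 4 lower (17.4%), the median being 0.52, and of 13 leucine-rich proteoglycans 6 were higher (46.2%) and 2 lower (median 0.96). Mmp13, the mouse collagenase, had a signal of 7801 on the control and 3.79, not well above background, on the treated array, at least 95.2-fold lower. Stromelysin Mmp3 went from 22734 to 140.4 (-4.34), and Mmp10, made at the migrating edge of wounds, from 3232 to 65.1 (-2.64, with normexp 0.11). Mmp9 was 1.02 higher, or 0.20 after cyclic loess, and the inhibitor Timp4 2.74 higher. Of 18 wound matrix genes 7 were lower, 2 of them steadily, and 3 higher. The lower ones included Tnc (-2.22), Thbs1 (-2.62), Thbs2 (-2.53) and Has2, which makes hyaluronan (-2.34), with periostin (Postn) and Sparc as bounds of at least 2.14-fold and 2.55-fold. With normexp Tnc was at 0.055, Thbs1 at -0.79, Thbs2 at 0.60 and Has2 at 1.45. Osteoglycin (Ogn), a small proteoglycan, was at -4.68, from 4438 to 21.6, and with normexp at -0.36. In back skin several of these genes lay on the other side, with Mmp13 3.81 higher, Mmp3 3.34, Tnc 3.92, Itgb1 1.87 and Cxcl1 4.34, while Ereg, Fosb and Il1a were lower there too (-3.53, -2.55 and -2.55). The back differed in dose and site, and the difference between the skins was not tested.

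**Figure D3:**
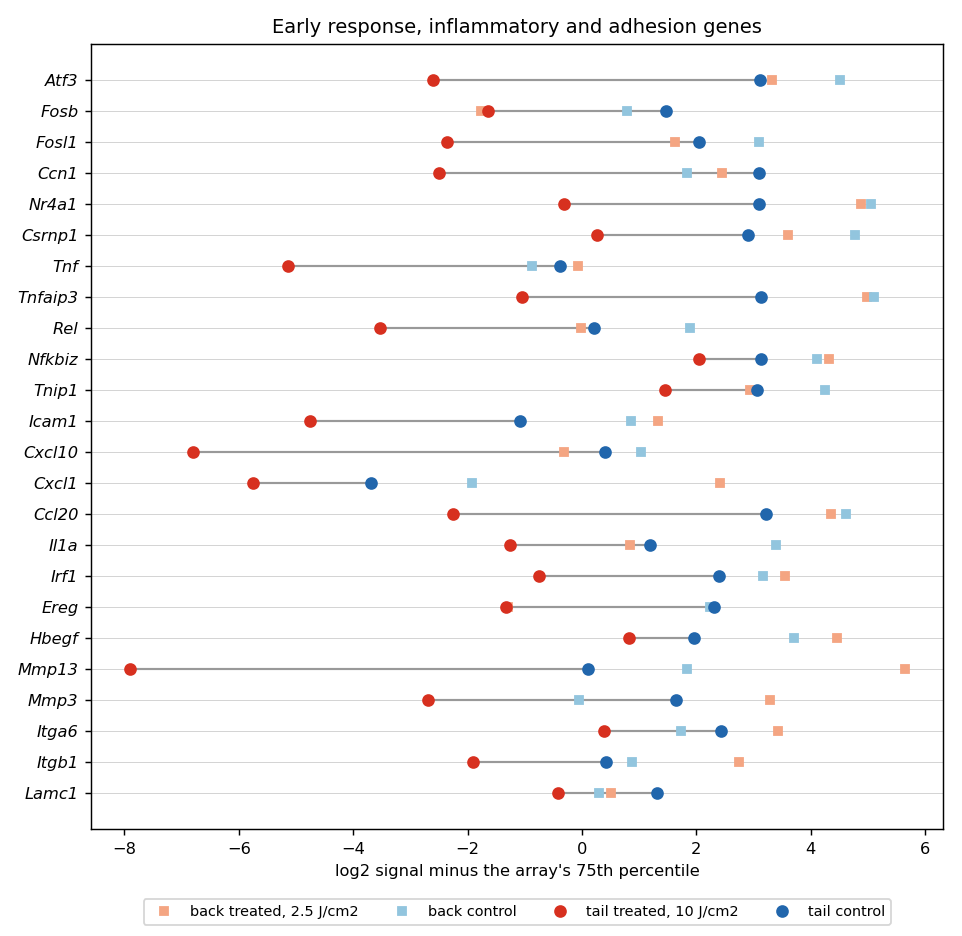
Scaled levels (log2 signal minus the 75th percentile of the array) of 24 genes of early response, inflammation, growth and adhesion on the tail (circles, joined by a line) and back (squares) arrays, 1 array per group. The genes were picked because they were lower in treated tail skin. The treated tail array thus lies below the control for all 24, from Mmp13 at the widest to Nfkbiz. Points of saturated or not well detected spots stand at their measured signal. For Cxcl10, Mmp13 and the genes given as bounds the line is therefore not the difference of the text.

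Genes of stress and metabolism were mostly within 2-fold, as were 8516 of all 12845 genes with a value. Adrenomedullin (Adm), a vasodilator peptide induced by hypoxia, was at -2.39 (34034 and 815), and Hif1a, the oxygen-regulated factor, at -1.42, or -2.01 after cyclic loess. Car12 was at -1.32. Of 18 hypoxia and glycolysis genes with a value 11 lay within 2-fold, 2 were higher and 5 lower (27.8%, against 6.55% of all genes). All 5 lower ones were steady. The chaperones Hsph1 and Dnajb9 were at -1.72 and -1.57 among 12 heat shock genes with a value, of which 9 lay within 2-fold. A further 12 heat shock genes had no value, among them Hspb1, which was saturated on both arrays. Of 23 p53 and apoptosis genes 20 lay within 2-fold, and the p53 target Cdkn1a was at least 1.12-fold lower, not a call. Ddit3, of the ATF4 pathway, was at -1.11, with normexp 0.0073. Circadian genes differed in both directions, with the repressors Nr1d1 at -2.36 (33188 and 809) and Bhlhe40 at -1.57, Per1 at -1.17 and Per2 at 2.05. The hour of sampling is not given in the sources used here.

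Because the drug enters through heme synthesis, its genes were read in full. Of 17 with a value, 12 lay within 2-fold, with the first enzyme Alas1 at -0.99 and ferrochelatase (Fech), which consumes protoporphyrin IX, at 0.091, where another probe differed in sign. The porphyrin exporter Abcg2 was at -1.94 (14533 and 473) and the heme exporter Flvcr1 at -2.31 (24041 and 608). Higher were 2 transporters that carry aminolevulinate or like compounds, Slc15a1 at 1.85 (1.17 after cyclic loess) and Slc6a13 at 2.07, and the erythroid enzyme Alas2 at 1.57. Heme oxygenase Hmox1, which breaks heme down, was saturated on the control array (72504) and read 13526 on the treated array, which gave no value. Iron handling genes were within 2-fold in 15 of 21 cases. The iron exporter Slc40a1 was 2.02 higher (1.04 after cyclic loess) and the hemoglobin scavenger Hp at least 30.2-fold, from a control signal not well above background.

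On the higher side, the genes with the largest difference had signals that were brighter on the treated array even unscaled, which was so for 112 measured genes in all and 2-fold so for 25. The 15 named by rule were Trim55, Ddx25, Lyg1, Spink12, Klk6, Hbb-bt, Degs2, Aldh1a3, Gsta4, Sox12, Dntt, Col19a1, Krt6b, Tac2 and Rassf2, and 11 of them had 1 probe. Trim55, a ligase of muscle sarcomeres, went from 231 to 1581 (5.78), and the germ cell helicase Ddx25 from 778 to 5173 (5.73). The bright epidermal genes of the set were the protease inhibitor Spink12, with 5025 and 15636 (4.64), the kallikrein protease Klk6, with 7357 and 19570.4 (4.41), and the wound keratin Krt6b, with 32411 and 54056 (3.74, or 2.60 after cyclic loess). Of the 15, 10 were at least 2-fold higher on the untreated back array than on the untreated tail array as well (27.4% of all genes were), among them Degs2 by 8.52 and Klk6 by at least 5.23. Both differences use the same tail control array, and the 15 were chosen by 1 of them, so the count of 10 is no independent result. Whether the tail control array read these genes low was not tested. Spink12 (-1.71), Lyg1 (-1.44, a bound), Trim55 (0.074), Ddx25 (0.13) and Rassf2 (0.69) did not show this. The 15 named on the lower side had control signals from 11177 to 63280 and treated signals from 202 to 1096, and 12 had 1 probe. Untreated back skin was at least 2-fold lower than untreated tail skin for 7 of these 15 (17.2% of all genes were), among them Lect2 (-4.02), Spry2 (-3.74), Zscan10 (-3.64) and Col4a6 (-3.37). This count too shares the tail control array with the choice of the genes, so it is no independent result. Beside those already given the 15 lower genes were Lect2 (-3.89), Pfpl (-3.32), the anthrax toxin receptor Antxr1 (-2.99), the chemokine-scavenging receptor Ackr3 (-2.97), Depp1 (-2.79), Hoxc4 (-2.78) and Zscan10 (-2.74).

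**Figure D4:**
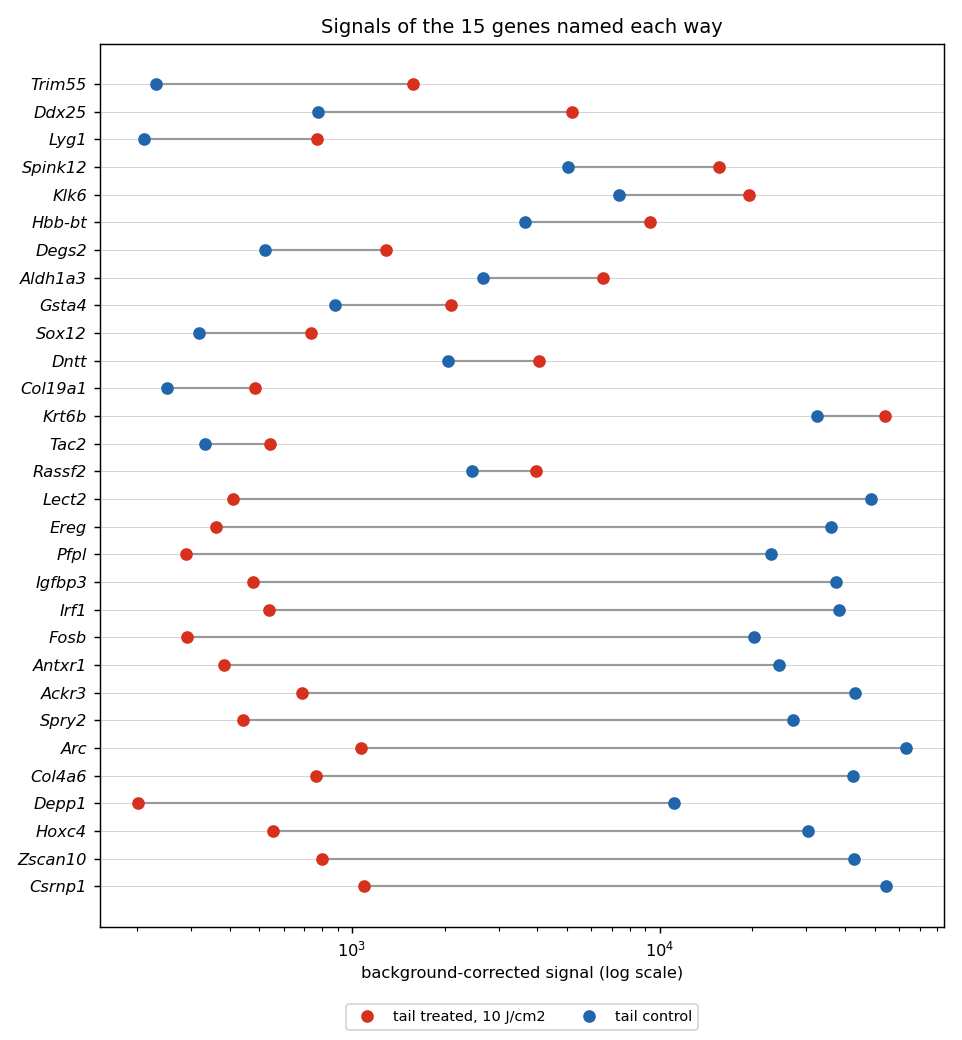
Background-corrected signals before any scaling, on a log axis, on the tail control (blue) and tail treated (red) arrays, for the 15 genes named by rule on each side. All 15 upper genes were brighter on the treated array, and the 15 lower genes had control signals between 11177 and 63280 and treated signals between 202 and 1096.

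Of 45 oxidant defence genes with a value none was lower and 13 were higher (28.9%, near the 27.2% of all genes), 8 of them steadily. The glutathione transferase Gsta4, which joins glutathione to products of lipid peroxidation, went from 883 to 2104 (4.25), and it was 4.56 higher in treated back skin. Gsta3, of the same class, was at 1.88 (1918 and 886). Glutathione peroxidase Gpx2, an epithelial NRF2 target, had 21223 and 12118 (2.19, or 1.50 after cyclic loess). The quinone reductase Nqo1, the usual reporter of NRF2, was at 1.48 and Osgin1, another target, at 1.27. The cystine transporter Slc7a11 was just at 2-fold (1.00) and 0.86 after cyclic loess. Sulfiredoxin Srxn1 was at 0.94 and its other probes differed in sign. Catalase differed by less than 2-fold. As a group the oxidant defence genes had a median of 0.68, which cyclic loess put at 0.014, against 0.33 and -0.076 for all genes.

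Retinoid genes had several steady members. Retinol is taken up by Stra6, stored by Lrat and oxidised to retinoic acid by aldehyde dehydrogenases, and retinoic acid controls keratinocyte maturation. Aldh1a3 went from 2675 to 6540.3 (4.29), Stra6 from 1712 to 1358 (2.66) and Lrat from 373 to 263 (2.50). Untreated back skin exceeded untreated tail skin in these 3, by 2.83, 1.51 and 2.44, a comparison that shares the tail control array. Of 27 members of the list with a value 9 were higher (33.3%, against 27.2% of all genes) and 1 lower, and the corneal aldehyde dehydrogenase Aldh3a1 was at -0.089.

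Many alarmins and antimicrobial genes of the epidermis were higher with the 75th percentile, and fewer after cyclic loess. S100a8 and S100a9, which pair to the calcium-binding alarmin of neutrophils and wounded keratinocytes, were saturated on the treated array, with S100a8 going from 11961 to 67286, at least 44.9-fold, and S100a9 from 49896 to 63522, at least 10.2-fold. The defensin Defb3 was at 2.29 (1364 and 832), Defb1 at 1.89 and the protease inhibitor Stfa2 at 2.02, the last pair 1.09 and 1.07 after cyclic loess. In all 11 of 16 alarmin and antimicrobial genes with a value were higher (68.8%, against 27.2% of all genes), 7 of them steadily, and 1 lower, the peptidoglycan receptor Pglyrp3 at -2.25 (with normexp -0.58). Cyclic loess left 7 higher and 3 lower of 17. Of the kallikreins, which cleave the junctions of shedding cells, Klk10 was at 2.66 and Klk1 at 2.47 beside Klk6, while the membrane protease Prss8 was at -1.06, or -1.69 after cyclic loess. The cornified envelope gene Sprr4 was at 2.53 and involucrin (Ivl) at 0.088. Elf3, an epithelial transcription factor, went from 11452 to 130.3 (-3.46). Of 33 genes of late differentiation 25 had no value. The simple-epithelial keratin Krt18 was 1.95 higher, and Krt5 and Krt10 were saturated on both arrays. Among barrier lipid enzymes, the ceramide hydroxylase Degs2 was at 4.31 and the fatty acid elongase Elovl3 at 2.66 (1.90 after cyclic loess), and 13 of 16 lay within 2-fold.

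**Figure D5:**
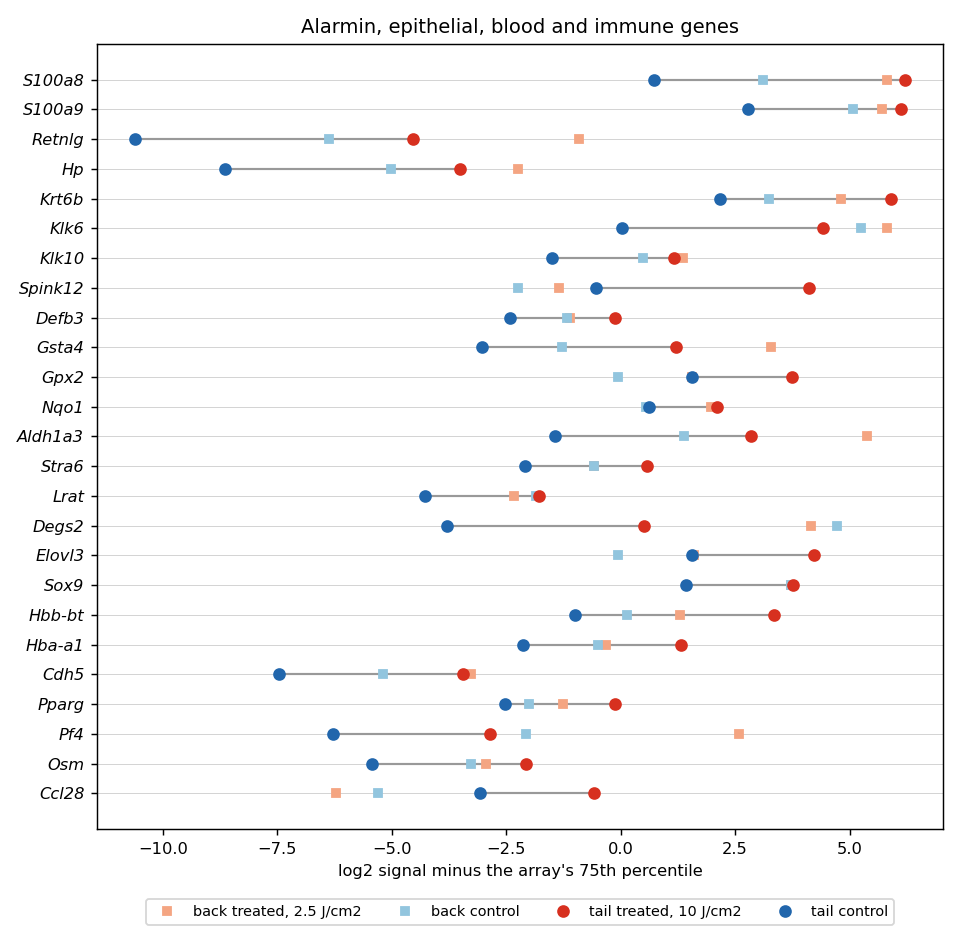
Scaled levels (log2 signal minus the 75th percentile of the array) of 25 genes of alarmins, epithelium, oxidant defence, blood and immune cells on the tail (circles, joined by a line) and back (squares) arrays, 1 array per group. The genes were picked because they were higher in treated tail skin, so the treated tail array lies above the control for all 25. For several, such as Klk6 and Degs2, both back arrays lie near or above the treated tail array. Points of saturated or not well detected spots stand at their measured signal.

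Follicle genes were mixed. Sox9, a factor of follicle stem cells, was at 2.33 (19588 and 12317) and Lgr5 at 1.52, and 9 of 25 members were higher (36.0%, against 27.2% of all genes) and 4 lower, 3 steadily in each direction. The Wnt effector Lef1 was at 2.26, whereas its target Axin2 was at -0.21. Of 31 hair shaft genes 24 had no value, and 5 of the other 7 were higher, led by Krtap15 at 2.29, Padi3 at 2.18 and Krt82 at 2.05. After cyclic loess Sox9 was at 1.65, Padi3 at 1.58 and Krt82 at 1.41. The melanocyte enzymes Tyrp1 and Dct were at 0.36 and 1.05 (Dct 0.26 after cyclic loess), and Kitl, the growth factor of melanocytes and mast cells, at -1.91, with normexp 0.35.

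Of 72 genes of blood, vessels, fat, muscle and dermis with a value, 51 were higher in treated tail skin (70.8%) and 4 lower. Of all genes 27.2% were higher, and of the dim olfactory receptors 72.7%, near the share of the 72. The median difference of the 72 genes was 1.52, which cyclic loess put at 0.89. In bulk tissue, more cells of a type and more RNA per cell cannot be told apart, and the amount of dermis in each sample is not stated. All 5 red blood cell genes with a value were steadily higher, with the globins Hbb-bt going from 3647 to 9317 (4.35) and Hba-a1 from 1664 to 2273 (3.45), and the anion exchanger Slc4a1 at 2.02. Of 15 endothelial genes 10 were higher (66.7%) and 0 lower, led by the junction cadherin Cdh5, which had 41.2 and 83.7 (4.02), and by Cldn5 (2.15) and Egfl7 (2.11). The endothelial marker Kdr went from 30.2 to 6.65, which was not well above background, and Tek was not well above background on either array. Of the adipocyte genes 12 of 16 were higher, among them the master regulator Pparg (1251 and 830.3, 2.41) and the droplet proteins Plin4 (2.54) and Cidea (2.99), while the fat hormone Adipoq was not well above background on either array. Muscle had 16 of 23 higher genes, with Myl1 at 5.44 from a control signal of 31.1, Mb at 3.35 and Tnnt3 at 3.27, but Acta1 was at 0.72 and Ckm at 1.21. Among fibroblast genes 8 of 13 were higher, with Fbln1 at 2.14 (10416 and 5757) and Pi16 at 2.52. Cyclic loess put Cdh5 at 3.35, Cldn5 at 1.54, Cidea at 2.02, Myl1 at 4.81, Tnnt3 at 2.50 and Ckm at 0.33. Together 47.2% of these 72 genes were steadily higher, against 14.1% of all genes and 31.9% of olfactory receptors. These lists were pooled after their high values were seen, so the 47.2% is no independent result. The nerve and Schwann cell list, not in the pool, had 2 of 9 genes higher and 1 lower. Its median was 0.20, which cyclic loess put at -0.63.

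Immune cell genes were mostly dim in the tail. Of 13 neutrophil genes with a value 9 were higher (69.2%, against 27.2% of all genes and 72.7% of the dim olfactory receptors), 4 of these as bounds, and 0 lower, and cyclic loess left 5 of 14. Apart from S100a8 and S100a9 the 9 had control signals of at most 175 (Mpo). Of the 8 neutrophil markers used to check the tissue 4 were above background on each array, and their summed signal went from 61963 to 130900, nearly all of it S100a8 and S100a9, which keratinocytes also make. Retnlg, which keratinocytes are not known for, read 4.68 and 39.3, at least 14.8-fold. Of the other markers, Elane read 28.5 and 28.9 (3.02 after scaling). Ltf went from 48.9 to 10.7, which was not well above background. Ngp, Camp and Csf3r were not well above background on either array. Among macrophage genes 11 of 19 were higher (57.9%), with Lyz2 at 2.44 (521 and 353) and Cd163 at 3.21 (29.4 and 33.9). The defining markers Adgre1 and Csf1r were at -0.38 and 0.18, with probes of differing sign for Csf1r. The macrophage median fell from 1.30 to 0.50 when only genes with a signal of at least 200 on both arrays were kept. The 57.9% lies between the 27.2% of all genes and the 72.7% of olfactory receptors. T and NK cells had 8 higher genes of 17 (47.1%, between these 2 shares), with Cd6 at 2.17 and Cd8a at 2.75 but Thy1 at -1.38. The T cell markers Cd3d and Cd3g were at 0.59 and 0.43, which cyclic loess put at -0.23 and -0.21. After cyclic loess Cd163 was at 2.32 and Cd8a at 2.08. Of 12 Langerhans and dendritic cell genes 4 were lower, none steadily, and 2 higher, each steadily, the highest at 2.59. Cyclic loess left 8 of 19 macrophage and 5 of 18 T and NK cell genes higher. The Langerhans lectin Cd207 went from 2419 to 51.9 (-2.54) and the maturation marker Cd83 from 3436 to 63.5 (-2.76), with the homing receptor Ccr7 at least 2.35-fold lower, and Epcam was at 0.37 and Cd74 at -0.59. With normexp Cd207 and Cd83 were at 0.68 and 0.054. Of the antigen processing genes 15 of 16 lay within 2-fold.

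Cell division genes differed little. Of 27 mitosis genes 24 lay within 2-fold (median 0.13), with Cdk1 at -0.94, where probes differed in sign, and Aurka at 0.98, and of 33 DNA replication genes 28 (median -0.097). The replication factors Pola1 and Rfc4 were steadily lower at -1.33 and -1.26, the latter -1.87 after cyclic loess. Oxidative phosphorylation genes lay within 2-fold in 11 of 15 cases and proteasome subunits in 14 of 16, with 32 and 20 further members unread. Of 38 ribosomal protein genes 37 had no value. Among reference genes 7 of 8 lay within 2-fold, and Actb was at 2.53.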

How the data were processed

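Total RNA, 200 ng per sample, was labelled with Cy3, per the labels' protocols, and each group was read on 1 Agilent array of a single colour, all on 1 slide. Slide position and group cannot be told apart. The deposited processed signal is an intensity corrected for background and not normalized between arrays, per the file headers, which name Feature Extraction 10.5.1.1, while the submitters' processing notes name version 10.7. How the authors' deposited log2 value table was made is not given in the sources used here. Its tail difference matched that of the processed signal plus a constant of 2.99 within 0.01 for 99.99% of 40772 probes, so its scale and direction were known. Its column medians were -0.28 and 0.099 for control and treated tail, and -0.031 and 0.084 for the back pair; its centring was not settled here.

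Each processed signal was taken to log2 and the 75th percentile of that array's non-control probes subtracted, with outlier spots left out and repeated spots averaged. Of 41174 probes, 24375 had an accession that RefSeq's gene table (GRCm38.p6) pairs with 1 symbol, and the brightest probe stood for each gene. Only RefSeq's promoter windows carry coordinates, because the file headers use mm8. Bounds raised a dim spot to the array's lowest well-detected signal where that was higher, and kept saturated spots at their value. The members and the 60 lists (1612 entries, 1504 on the array) were chosen with earlier results of these data known. Named genes were the 15 largest steady differences each way with a signal of at least 200, and in each list 2 fixed members, up to 6 measured ones and up to 4 bounds by size. Alternatives used limma 3.58.1 in R 4.3.3 (normexp with an offset of 50, quantile, cyclic loess with a span of 0.7). Normexp was run on the median spot signal, since no mean signal was in the files used here. The pooled lists and receptor families were chosen after their values were seen.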

Additional observations from a re-analysis of the deposited data

Results flagged for a closer look

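The tail and back pairs share no array, and results were singled out where the median of a list or a gene named above was at least 2-fold higher in one skin and at least 2-fold lower in the other. Each skin had 1 array per group, with different doses, and the difference between the skins was not tested. Hair shaft genes had a median of 1.63 in the tail (0.69 after cyclic loess, under 2-fold) and -2.09 in the back. The tail median rested on 7 genes that were not saturated and the back median on 29, so the sets of genes differ.

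Genes of wounds and of adhesion that were lower in the tail and higher in the back formed the longest series. For the proteases, Mmp13 was at -6.57 and 3.81, Mmp3 at -4.34 and 3.34 and Mmp10 at -2.64 and 1.68 (tail first, here and below). For the matrix, Tnc was at -2.22 and 3.92, Thbs2 at -2.53 and 2.16 and Has2 at -2.34 and 1.68. The integrins Itga6 and Itgb1 were at -2.05 and 1.69 and at -2.32 and 1.87. The chemokines Cxcl1 and Cxcl2 were at -2.06 and 4.34 and at -2.83 and 3.18. The tail values of Mmp13 and Cxcl2 are bounds. With normexp the tail values of Mmp10, Tnc, Thbs2, Has2 and Cxcl1 changed sign, so their direction in the tail depends on the scaling.

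Other genes lower in the tail and higher in the back were Abcg2 (-1.94 and 2.25), Adm (-2.39 and 1.77), Bhlhe40 (-1.57 and 1.34), Ddit3 (-1.11 and 1.17), Smad3 (-1.78 and 1.00) and Tgfb1 (-1.02 and 1.14). Higher in the tail and lower in the back were Il1f6 (1.60 and -3.85), Il1f8 (1.32 and -2.30), Slc40a1 (2.02 and -2.66), Slc15a1 (1.85 and -1.57), Klk1 (2.47 and -1.95), Fgf5 (2.90 and -1.81), Cd8a (2.75 and -1.52) and Col1a1 (1.09 and -1.29). The tail values of Ddit3, Smad3 and Tgfb1 changed sign with normexp, and those of Il1f6 and Il1f8 were under 2-fold after cyclic loess.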

How the results depend on the processing

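With the 75th percentile 3488 genes were higher and 841 lower, and 80.6% of calls were higher. Cyclic loess gave 2007, 1595 and 55.7%, quantile normalization 2049, 1556 and 56.8%, normexp 5731, 534 and 91.5%, and spike-in scaling 133, 10334 and 1.27%. With spike-in scaling every measured difference is 2.07 lower, so that most higher calls end. A signal of at least 200 on both arrays, which drops dim genes, left 1235 higher and 410 lower. Counts stayed within 1.5 times with the median of detected probes, outlier spots kept, probes of a gene averaged, measured genes only and the authors' deposited table. Leaving out spike-in scaling, of 539 list medians under these settings 123 moved by more than 0.40 and none of those at 1 or beyond changed sign. Of 1574 values of 187 named genes, 16 changed the sign of a 2-fold call, all with normexp, whose offset lifts dim treated signals: Cd207 0.68, Cd83 0.054, Cxcl1 2.51, Ddit3 0.0073, Egr4 0.27, Has2 1.45, Icam1 0.032, Itgav 1.51, Kitl 0.35, Mmp10 0.11, Nr4a2 1.23, Ptger4 0.36, Smad3 0.081, Tgfb1 1.57, Thbs2 0.60 and Tnc 0.055. With 1 array per group no replicate could be left out. No paired analysis was possible because each group has 1 array. Precision is limited by the number of arrays, by saturation of bright genes on the control array and by low signals on the treated array.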

Other observations

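Vomeronasal receptors, like olfactory receptors a family read at low signal, had 46 members with a value. Of these 37 (80.4%) were higher and 0 lower; their median was 1.35, and cyclic loess put it at 0.47. Both families were chosen after their values were seen. Among 10 equal bins of the measured genes from dim to bright, steadily higher genes made up 27.7% of the third bin and 2.00% of the ninth. Steadily lower genes were absent from the 4 dimmest bins, where the offset of normexp lifts treated signals, and reached 6.09% in the seventh. Of 902 called genes with a second measured probe, 80.8% had no probe of opposite sign.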
